A study of Danio rerio with 8 samples.

Results

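The genes of planar polarity and convergent extension described here were 9 genes chosen by name for their place in the pathway: the ligand genes *wnt11f2* and *wnt5b*, the receptor genes *fzd7a* and *fzd7b*, the coreceptor gene *gpc4*, and *vangl2*, *prickle1a*, *dvl2* and *scrib* of the polarity machinery. The choice was made with earlier results of these data known. The 9 genes were looked up by symbol among the 32520 genes of the counts, and all were found and tested. Both zebrafish *fzd7* copies carry one shared symbol in the table of gene names, so they are given by their identifiers, and which of them is *fzd7a* was not resolved. During gastrulation, cells of the dorsal side move toward the midline and intercalate between each other, so that the body axis narrows and lengthens. Noncanonical Wnt ligands act in this process through Frizzled receptors, and asymmetric complexes built around Vangl, Prickle, Dishevelled and the Celsr cadherins orient the cells and pass the signal on to the actin cytoskeleton. In zebrafish, mutants of *wnt11f2* (*silberblick*), *wnt5b* (*pipetail*), *gpc4* (*knypek*), *vangl2* (*trilobite*) and *scrib* (*landlocked*) are known for defects of convergent extension or of cell migration that depends on polarity.

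Polyadenylated RNA was sequenced from whole embryos at 8 hpf, in the middle of gastrulation, in 4 wild-type and 4 *miR-34a-/-* libraries. Both genotypes were in the *casper* background, a line that lacks most of its pigment, and none of the embryos was treated. The mutant line carries one CRISPR/Cas9 deletion of *miR-34a*, a microRNA gene known as a target of p53, and was kept as a separate homozygous line, so that its embryos also had no maternal miR-34a. Wild-type and mutant embryos were therefore not siblings, and the effect of the deletion cannot be told apart from other differences between the lines or from a small difference in developmental stage. Each library came from a pool of embryos, and in such bulk RNA fewer cells of a type and less RNA per cell cannot be told apart. The labels number the libraries 1 to 4 in each genotype and do not state separate clutches, so the p-values measure the spread between these libraries, which may be technical.

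The depth on genes was 7132045 to 11191023 counts for wild-type and 8159574 to 15724724 for mutant libraries. Values are given as CPM, the counts relative to the library size after TMM normalization. The *mir34a* gene had 0 counts in all 8 libraries, so its counts gave no check of the genotype labels. The comparison between genotypes used the quasi-likelihood F test of edgeR, with p adjusted by the Benjamini-Hochberg method over 13842 genes, and a gene was called when its adjusted p was under 0.05. Markers of the gastrula were all measured, while *neurod1*, *myog*, *gata1a* and *hbbe1.1*, which mark neurons, muscle and blood, had at most 3 counts in every library. The other markers of later stages were low and not tested, with *elavl3* of neurons at 0.979 to 2.29 CPM in wild-type and 0.490 to 0.637 CPM in mutant libraries, and *myod1* of muscle at 0.353 to 0.839 CPM and 0 to 0.321 CPM. Both were lower in all mutant libraries, from at most 20 and 8 counts.

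A microRNA recognises its targets mainly by the seed, its bases 2 to 8. The site that the study placed in 3 copies in an oligo for its miR-34a sensor is shown here because it spells out what the deleted microRNA binds. It is fully complementary to miR-34a, and the bases that pair with the seed are in capitals.
miR-34a sensor site: acaaccagctaagaCACTGCCa
In the readable part of the study's list of predicted miR-34 targets, which holds 1999 gene identifiers, *gpc4* and *scrib* were the 2 members listed. The copy of the list is not complete, so no overlap was tested and the other 7 members may or may not be on the full list.

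At 8 hpf, 2 members were higher in *miR-34a-/-* embryos, *scrib* and the *fzd7* copy ENSDARG00000027589, and 2 were lower, *prickle1a* and *wnt11f2*. The other 5 (*wnt5b*, *gpc4*, *vangl2*, *dvl2* and the *fzd7* copy ENSDARG00000060004) were not called. The members were thus called in 44.4% of cases, close to the 45.4% of all genes tested (6280 genes, 23.0% higher and 22.4% lower). The 8 libraries fell into non-overlapping genotypes for 4 of the 9 members, and for 38.8% of all genes tested. Changes were small: the median absolute log2 fold change was 0.10 over the members and 0.23 over all genes tested, and *prickle1a* alone passed 1.5-fold, as did 17.6% of all genes (8.84% higher and 8.76% lower). No member reached 2-fold, as 8.11% of all genes did. Each member was read from at least 290 counts in each library, and the coefficient of variation between libraries of a genotype ranged from 2.16% to 8.53% in wild-type and from 1.03% to 6.10% in *miR-34a-/-* embryos. All genes tested include genes with far fewer counts, and the medians and shares compared here were not matched for level.

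**Figure D1:**
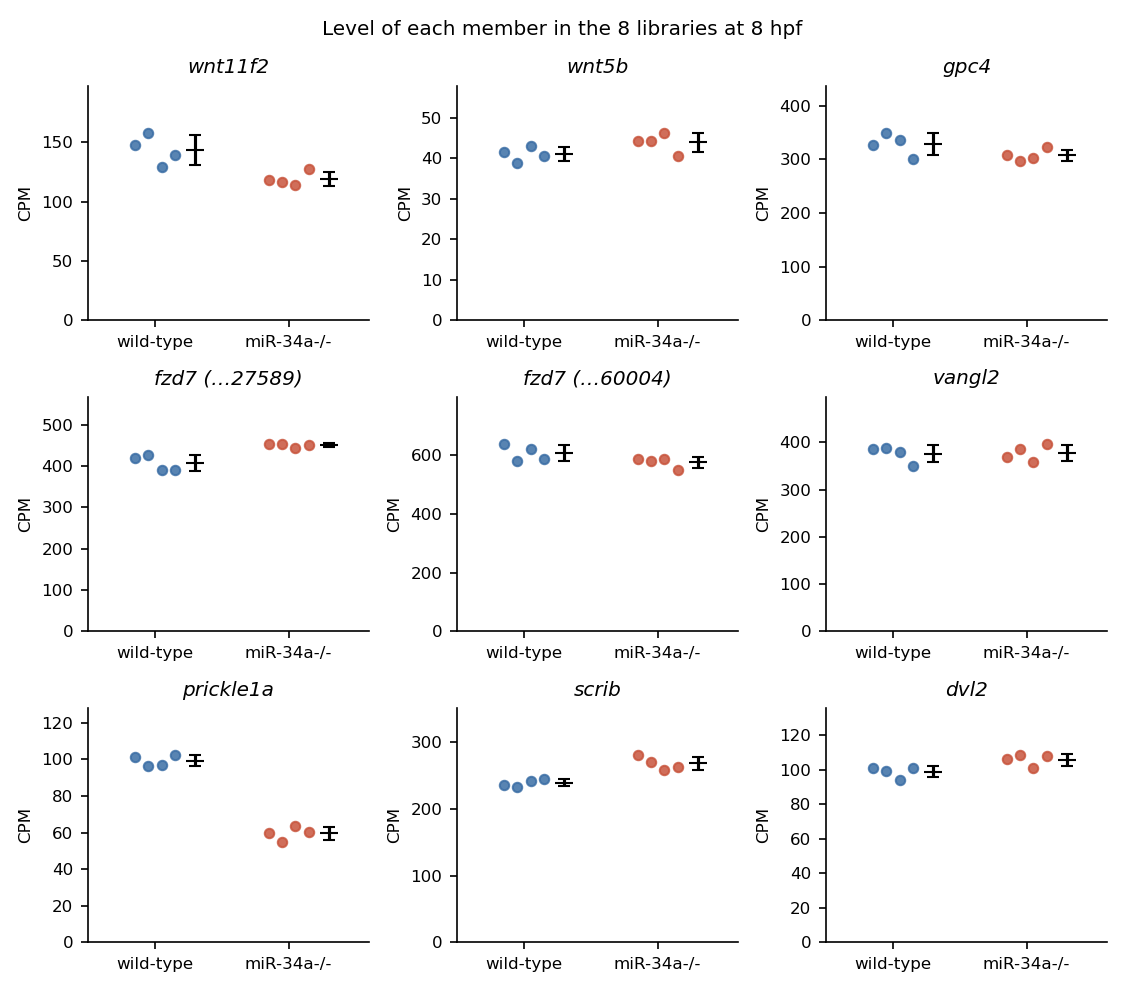
Level of each member in CPM (y axis, from 0) in the 4 wild-type (blue) and 4 *miR-34a-/-* (red) libraries at 8 hpf, with the mean and SD beside the points. Mutant points lie below all wild-type points for *wnt11f2* and *prickle1a* and above them for *scrib* and *fzd7* ENSDARG00000027589, and the genotypes overlap in the other 5 panels.

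Of the ligand genes, *wnt11f2* (ENSDARG00000004256), which is needed in zebrafish for convergence of the axial mesoderm, was lower in the mutant. It had 148, 158, 129 and 139 CPM in wild-type replicates 1 to 4 and 118, 117, 114 and 128 CPM in the mutant replicates. Every mutant library was thus below every wild-type library, although the lowest wild-type and the highest mutant library nearly met. The level fell by 16.7%, a log2 fold change of -0.26 ± 0.06 (SE, n = 4 per genotype), with an adjusted p of 3.1e-04 in edgeR's quasi-likelihood F test and a 95% interval from -0.38 to -0.15. Leaving out single libraries moved the log2 fold change between -0.32 and -0.21 and left the call in place.

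The other expressed ligand gene, *wnt5b* (ENSDARG00000102464), a noncanonical Wnt of the posterior mesoderm, had 41.6, 39.0, 43.0 and 40.6 CPM in wild-type and 44.3, 44.3, 46.3 and 40.7 CPM in mutant libraries. Mutant replicate 4 lay among the wild-type libraries and the other mutant libraries above them. The difference of 0.09 ± 0.06 (SE) on the log2 scale was not called (adjusted p = 0.27, edgeR's quasi-likelihood F test), and its 95% interval ran from -0.04 to 0.22. Other ligand genes were hardly read at this stage: *wnt11* had between 1 and 10 counts in a library, *wnt5a* had 0 in all 8, which allows up to 3 counts in each, and *wnt4*, *wnt4b* and *wnt7ba* had at most 3. The 5 ligand genes of the list other than members therefore gave no test.

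Of the receptor genes, *fzd7* encodes a Frizzled receptor that binds noncanonical Wnts in the gastrula, and both copies were strongly read. The copy ENSDARG00000027589 had 419.8, 426, 391 and 390.1 CPM in wild-type and 453, 453, 443 and 451 CPM in mutant libraries. All mutant libraries lay above all wild-type libraries. The coefficient of variation was 1.03% in mutant and 4.63% in wild-type libraries, and whether the spread differed was not tested. This copy rose by 10.7%, with a log2 fold change of 0.15 ± 0.04 (SE, n = 4 per genotype), a 95% interval from 0.07 to 0.23 and an adjusted p of 2.9e-03 in edgeR's quasi-likelihood F test.

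The other copy, ENSDARG00000060004, had 638, 581, 622 and 588 CPM in wild-type and 585, 581, 586 and 549 CPM in mutant libraries. Wild-type replicates 2 and 4 lay within or next to the range of the mutant libraries, so the genotypes overlapped. Its log2 difference was -0.08 ± 0.04 (SE), with an unadjusted p of 0.051 and an adjusted p of 0.098 in edgeR's quasi-likelihood F test. The call was gained without wild-type replicate 2 (-0.10, adjusted p = 0.037), and with upper quartile in place of TMM normalization (adjusted p = 0.038).

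*gpc4* (ENSDARG00000015472) encodes Glypican 4, a heparan sulfate proteoglycan that acts as a coreceptor in noncanonical Wnt signalling. It had 328, 349.6, 337 and 301 CPM in wild-type and 308, 296, 303 and 322 CPM in mutant libraries. Wild-type replicate 4 was the only wild-type library within the range of the mutant libraries. The log2 difference was -0.10 ± 0.04 (SE), with an unadjusted p of 0.036 and an adjusted p of 0.074 in edgeR's quasi-likelihood F test. It was called lower without wild-type replicate 4 (-0.14, adjusted p = 0.013) and without mutant replicate 4 (-0.12, adjusted p = 0.038).

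Of the core polarity genes, *prickle1a* (ENSDARG00000040649) showed the largest difference among the members. Prickle1a is a LIM domain protein that stands opposite Frizzled and Dishevelled in the polarised cell and binds Vangl2. Its gene had 101, 96.4, 97.1 and 102 CPM in wild-type and 60.0, 54.7, 63.5 and 60.2 CPM in mutant libraries, from 519 to 1101 counts. All mutant libraries lay far below all wild-type libraries, and the gap between the genotypes was wider than the range within either. The level fell by 39.9%, a log2 fold change of -0.74 ± 0.05 (SE, n = 4 per genotype), with a 95% interval from -0.85 to -0.62 and an adjusted p of 1.6e-11 in edgeR's quasi-likelihood F test. Leaving out single libraries kept it between -0.76 and -0.70.

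*vangl2* (ENSDARG00000027397), a transmembrane protein gene and the binding partner of Prickle in this system, had 387, 388, 379 and 350.3 CPM in wild-type and 369.7, 385, 358 and 397 CPM in mutant libraries. The libraries of the genotypes were interleaved, with wild-type replicate 4 lowest and mutant replicate 4 highest. The log2 difference was 0.01 ± 0.04 (SE), with a 95% interval from -0.08 to 0.09 and an adjusted p of 0.92 in edgeR's quasi-likelihood F test, and its sign changed with the scaling and with single libraries.

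*dvl2* (ENSDARG00000056184) encodes Dishevelled 2, the cytoplasmic protein that relays signals from Frizzled receptors. It had 101, 98.9, 94.1 and 101 CPM in wild-type and 106, 108, 101 and 108 CPM in mutant libraries. Mutant replicate 3 lay within the wild-type range and the other mutant libraries above it. The log2 difference of 0.10 ± 0.05 (SE) had an unadjusted p of 0.048 and an adjusted p of 0.092 in edgeR's quasi-likelihood F test, and was not called under any of the alternatives tried.

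*scrib* (ENSDARG00000000861) encodes Scribble, a scaffold protein of cell polarity that interacts with Vangl2. It had 236, 233, 241 and 244 CPM in wild-type and 280.4, 269, 258 and 263 CPM in mutant libraries. All mutant libraries lay above all wild-type libraries. The level rose by 12.2%, a log2 fold change of 0.17 ± 0.04 (SE, n = 4 per genotype), with a 95% interval from 0.08 to 0.25 and an adjusted p of 1.5e-03 in edgeR's quasi-likelihood F test. Of the 2 members on the readable part of the predicted target list, *scrib* was thus higher in the mutant and *gpc4* was not called.

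**Figure D2:**
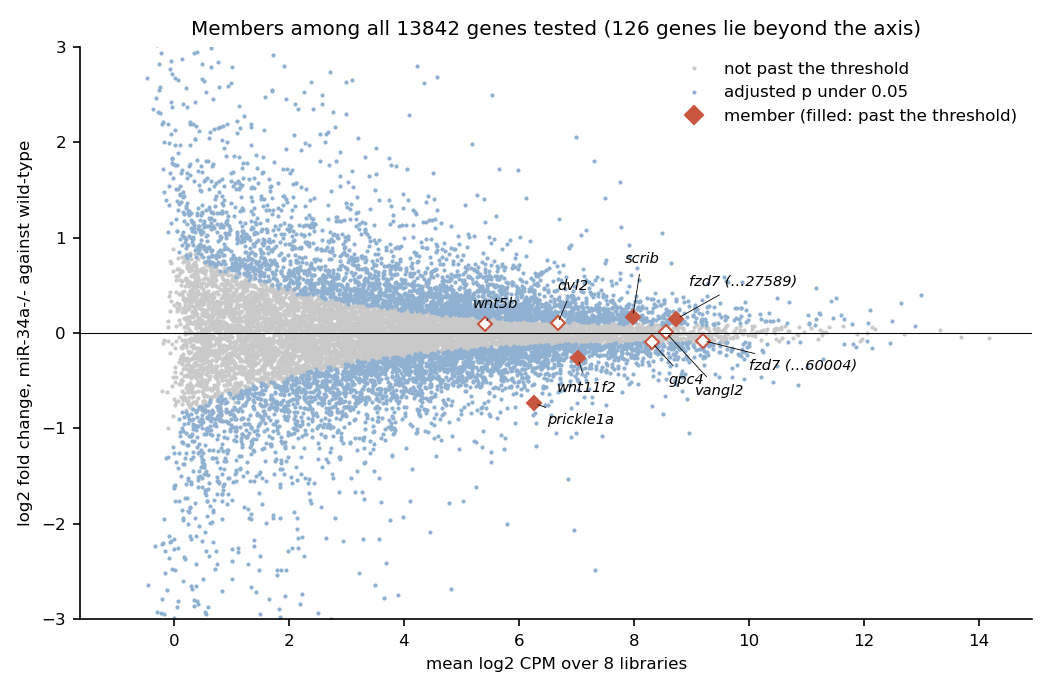
Log2 fold change of *miR-34a-/-* against wild-type embryos (y axis) by mean log2 CPM over 8 libraries (x axis) for 13842 genes, with genes called in blue, others in grey, and the 9 members as diamonds, filled where called. The members lie to the right among genes with many counts, and *prickle1a*, at -0.74, is the only one past 1.5-fold.

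Some members have a close relative that can act in its place, so the share of each member in the summed counts of its relatives was compared within libraries, where the scaling of libraries plays no part. The *fzd7* copy ENSDARG00000027589 took 39.7%, 42.3%, 38.6% and 39.9% of the counts of both copies in wild-type and 43.7%, 43.8%, 43.1% and 45.1% in mutant libraries. Its share was higher in all mutant libraries, by 3.82 percentage points on average. The summed level of both in wild-type embryos was 1014 ± 32.9 CPM (SD, n = 4), against 1025 ± 17.3 CPM in the mutant, with overlapping ranges.

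For *prickle1a*, the share in the counts of *prickle1a* and *prickle1b* was 59.0%, 61.1%, 61.5% and 60.9% in wild-type and 50.4%, 48.7%, 54.1% and 51.8% in mutant libraries. In all mutant libraries the share was lower, and on average it fell by 9.35 percentage points. *prickle1b* itself had 64.6 ± 4.51 CPM in wild-type against 56.6 ± 2.16 CPM in mutant embryos (SD, n = 4 each). Its log2 fold change of -0.18 ± 0.06 (SE) passed the threshold with an adjusted p of 0.013 in edgeR's quasi-likelihood F test, but not without wild-type replicate 1 (-0.14, adjusted p = 0.071). The sum of *prickle1a* and *prickle1b* in wild-type embryos was 164 ± 7.17 CPM (SD, n = 4), against 116 ± 2.84 CPM in the mutant. More distant *prickle* genes were left out of this sum. Among them, *prickle2* ENSDARG00000037593 was lower by -0.30 ± 0.08 (adjusted p = 3.8e-03, edgeR's quasi-likelihood F test). *prickle2* ENSDARG00000020982 (0.16 ± 0.26) and *prickle3* (0.03 ± 0.13) were not called.

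The share of *dvl2* in the counts of all 5 *dvl* genes was 51.4 ± 0.887% (SD, n = 4) in wild-type and 52.7 ± 0.760% (SD, n = 4) in mutant libraries, and these overlapped. Nearly all other *dvl* counts belonged to the *dvl3* gene ENSDARG00000015707, with a level of 91.2 ± 1.19 CPM in wild-type and of 92.3 ± 2.65 CPM in mutant embryos (SD, n = 4 each). The *vangl2* share was at least 99.8% of *vangl1* and *vangl2* in each library, *wnt11f2* took at least 99.5% of the counts it shares with *wnt11*, and *wnt5b* took all the counts of *wnt5a* and *wnt5b*.

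In two-sided exact permutation tests of the genotype labels, the shares of *fzd7* ENSDARG00000027589 and of *prickle1a* each gave p = 0.0286, the smallest p this design allows, and 0.0858 after Benjamini-Hochberg adjustment over the 6 shares. The exact permutation p was 0.0857 for *dvl2*, 0.143 for *vangl2*, 0.514 for *wnt11f2* and 1 for *wnt5b*, or 0.171, 0.214, 0.617 and 1 adjusted. No share passed 0.05 after adjustment over the 6, and with 4 libraries per genotype a single fully separated share could not have done so. The shares of *vangl2*, *wnt11f2* and *wnt5b* could hardly differ, as their relatives had at most 5, 10 and 0 counts in a library. They still counted among the 6, which made the adjustment stricter, so these adjusted values do not decide on *fzd7* ENSDARG00000027589 and *prickle1a*. How reads shared by near-identical copies were counted is not given in the sources used here, so the split between copies carries that uncertainty.

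**Figure D3:**
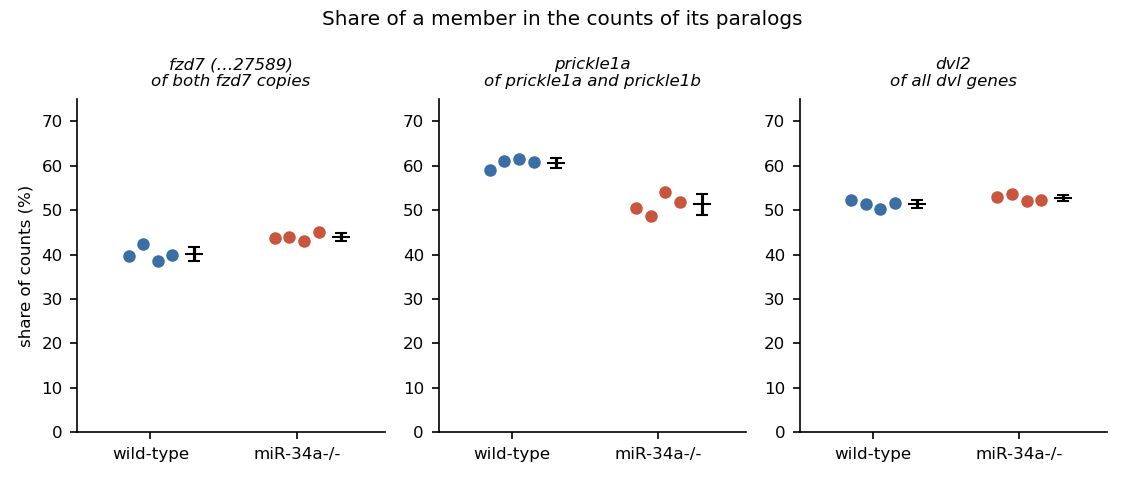
Share of *fzd7* ENSDARG00000027589, *prickle1a* and *dvl2* in the counts of their relatives (y axis, percent, from 0) in 4 wild-type (blue) and 4 *miR-34a-/-* (red) libraries, with mean and SD. The genotypes separate in the *fzd7* panel (38.6% to 42.3% against 43.1% to 45.1%) and in the *prickle1a* panel (59.0% to 61.5% against 48.7% to 54.1%) and overlap in the *dvl2* panel.

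The rest of the pathway was read from a list of 119 symbols in 6 roles, which includes the members. Of these, 109 genes were paired with the counts and 89 were tested, of which 15 were higher in *miR-34a-/-* embryos, 24 were lower and 50 were not called. The share called was 43.8%, against 45.4% of all genes tested. Of the 89, 5 passed 1.5-fold, as did 17.6% of all genes tested. The median log2 fold change of the 89 was -0.01, and their median absolute log2 fold change was 0.16, between those of the members and of all genes. The 20 genes that were not tested had at most 21 counts in a library.

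**Figure D4:**
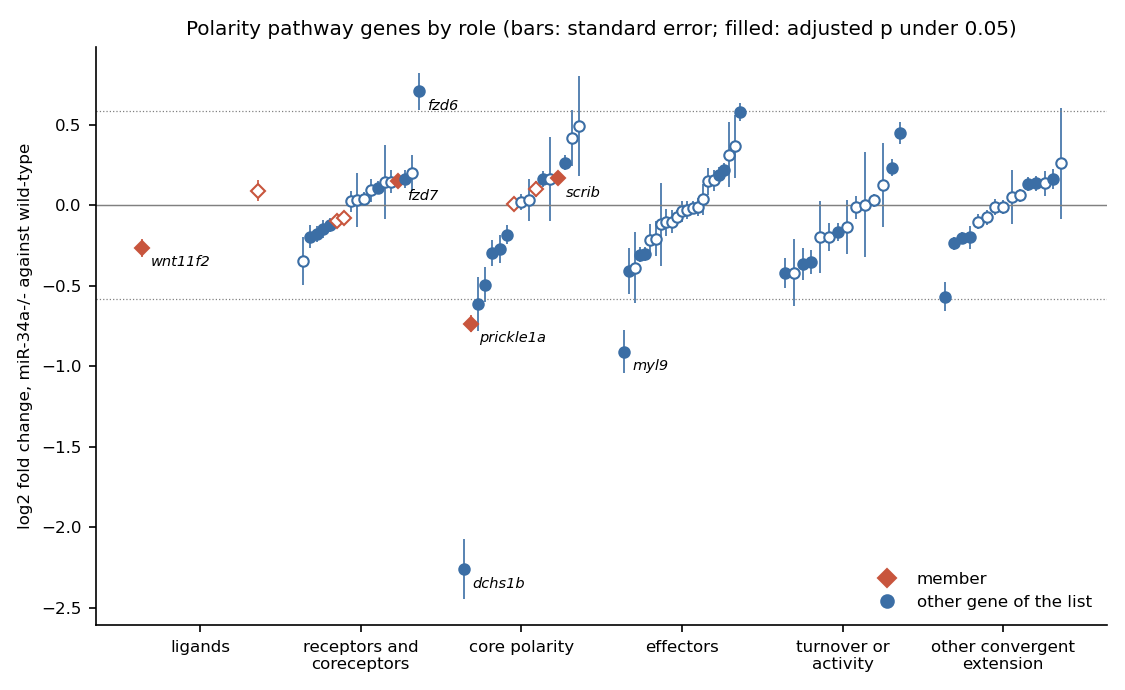
Log2 fold change of *miR-34a-/-* against wild-type embryos with its standard error (y axis) for the 89 tested genes of the pathway list, grouped by role (x axis) and sorted within it, with members as red diamonds, other genes as blue circles, filled symbols for called genes and dotted lines at 1.5-fold. Most genes lie between the dotted lines, and *dchs1b* at -2.26, *myl9* ENSDARG00000008030, *prickle1a*, *celsr1b* and *fzd6* lie beyond them.

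Among 18 tested receptor and coreceptor genes, 4 were higher and 4 lower, so 44.4% were called, against 45.4% of all genes tested. *fzd6*, a Frizzled gene known in mice for orienting hairs, rose from between 9.61 and 12.1 CPM in wild-type to between 15.2 and 20.1 CPM in mutant libraries, a log2 fold change of 0.71 ± 0.11 (SE) with an adjusted p of 1.0e-05 in edgeR's quasi-likelihood F test. The genotypes did not overlap for it. The *fzd8* gene ENSDARG00000045444 was lower by -0.18 ± 0.05 (adjusted p = 4.5e-03, edgeR). The other calls named here were small and were lost when single libraries were left out. *ryk*, a Wnt receptor related to kinases, was higher by 0.16 ± 0.05, with an adjusted p of 0.015 in edgeR's test, or 0.056 without wild-type replicate 2. *ror2*, a receptor kinase for noncanonical Wnts, was higher by 0.11 ± 0.04 (adjusted p = 0.040), a call lost without wild-type replicate 2, 3 or 4 or mutant replicate 1, 2 or 4, at adjusted p from 0.069 to 0.11 in edgeR's test. The *ror2* call was also lost with the replicate block (adjusted p = 0.066, edgeR), DESeq2 (0.066), the library total (0.056) or upper quartile (0.090) in place of TMM, and no filter on low counts (0.063). *lrp6*, the coreceptor of canonical Wnt signalling, was lower by -0.20 ± 0.07 (adjusted p = 0.026), a call lost without mutant replicate 3 (-0.12, adjusted p = 0.14) and without wild-type replicates 1, 3 or 4, at adjusted p from 0.056 to 0.071 in edgeR's test. The *fzd8* gene ENSDARG00000038569 was lower by -0.15 ± 0.05 (adjusted p = 0.027), a call lost without mutant replicate 2, 3 or 4 or wild-type replicate 1 or 3, at adjusted p from 0.052 to 0.11 in edgeR's test.

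Among 17 tested core polarity genes, 3 were higher and 7 lower. This was 58.8% called, against 45.4% of all genes tested, of which 22.4% were called lower. Whether this role differs from all genes was not tested. *dchs1b*, a large cadherin gene of the Fat and Dachsous system that aligns polarity between cells, had 8.01, 11.6, 9.26 and 8.12 CPM in wild-type and 1.36, 2.09, 2.45 and 1.92 CPM in mutant libraries. The genotypes lay far apart, with a log2 fold change of -2.26 ± 0.19 (SE, n = 4 per genotype) and an adjusted p of 1.1e-10 in edgeR's quasi-likelihood F test. Genes lower by at least 4-fold made up 1.20% of all genes tested, and no other tested gene of the list was among them. *dchs1b* was also on the readable part of the predicted target list. The 3 *celsr* genes tested, which encode the seven-pass cadherins that bridge polarised neighbours, did not move one way. *celsr1a* rose from between 137 and 156 CPM to between 169 and 184 CPM (0.26 ± 0.05, adjusted p = 5.4e-05, edgeR). *celsr2* was higher by 0.16 ± 0.05 (adjusted p = 9.7e-03, edgeR, or 0.062 without mutant replicate 1), and *celsr1b*, at 5.11 to 8.64 CPM in wild-type, was lower by -0.62 ± 0.17 (adjusted p = 3.9e-03, edgeR), with overlapping genotypes. *ankrd6a*, a relative of the fly polarity gene *diego*, was lower by -0.49 ± 0.11 (adjusted p = 4.8e-04, edgeR), also with overlap.

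Among 23 tested effector genes, 3 were higher and 4 lower, so 30.4% were called, against 45.4% of all genes tested. Values are given for the lower genes. *cfl1* fell from between 522 and 594 CPM to between 433 and 458 CPM, without overlap (-0.30 ± 0.04, adjusted p = 9.9e-07, edgeR's quasi-likelihood F test). In *rac1a*, a gene for the GTPase Rac1, the level fell from between 418 and 444 CPM to between 326 and 374 CPM, without overlap (-0.31 ± 0.04, adjusted p = 2.2e-06, edgeR's quasi-likelihood F test). The *myl9* gene ENSDARG00000008030, a myosin regulatory light chain, fell from between 10.5 and 13.1 CPM to between 5.33 and 7.59 CPM (-0.91 ± 0.13, adjusted p = 2.6e-06, edgeR). *daam1b*, a formin gene whose product binds Dishevelled, was lower by -0.41 ± 0.14 (adjusted p = 0.021, edgeR), a call lost without mutant replicate 4 (-0.27, adjusted p = 0.13) or wild-type replicate 4 (-0.35, adjusted p = 0.064).

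Of 14 tested regulators of turnover or activity, 2 were higher and 4 lower, so 42.9% were called, against 45.4% of all genes tested. *smurf1*, a ubiquitin ligase gene known in mice for limiting Prickle1, rose from between 33.2 and 37.2 CPM to between 44.1 and 51.4 CPM, without overlap (0.45 ± 0.07, adjusted p = 4.4e-06, edgeR's quasi-likelihood F test). Both *lgl* relatives, which act with Scribble in cell polarity, were called in opposite directions, *llgl2* higher by 0.23 ± 0.05 (adjusted p = 7.6e-04, edgeR) and *llgl1* lower by -0.35 ± 0.08 (adjusted p = 4.7e-04, edgeR). *nkd1*, which binds Dishevelled and limits Wnt signalling, was lower by -0.42 ± 0.09 (adjusted p = 5.4e-04, edgeR). *mink1*, a kinase gene of the Misshapen family, was lower by -0.37 ± 0.10 (adjusted p = 3.6e-03, edgeR).

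Of 15 tested regulators of convergent extension outside the polarity core, 3 were higher and 4 lower. The share called was 46.7%, against 45.4% of all genes tested. *stat3*, a transcription factor gene that is needed for gastrulation movements in zebrafish, fell from between 22.1 and 24.0 CPM to between 13.8 and 16.9 CPM (-0.57 ± 0.09, adjusted p = 9.1e-06, edgeR's quasi-likelihood F test). The T-box genes of the mesoderm were lower, *tbx16* by -0.24 ± 0.04 (adjusted p = 2.4e-05, edgeR) and *tbxta* by -0.20 ± 0.04 (adjusted p = 8.0e-05, edgeR), both without overlap. The 3 higher genes changed little and overlapped between the genotypes, and their calls rested on single libraries. *pcdh18b*, a protocadherin gene, was higher by 0.16 ± 0.06 (adjusted p = 0.027, edgeR), a call lost without wild-type replicate 3 (0.10, adjusted p = 0.17), wild-type replicate 4 (0.067) or mutant replicate 4 (0.070). *aplnrb*, an apelin receptor gene, was higher by 0.13 ± 0.05 (adjusted p = 0.019, edgeR), a call lost without mutant replicate 1 (adjusted p = 0.061), mutant replicate 4 (0.074) or wild-type replicate 4 (0.057). *qkia*, a gene for the RNA-binding protein Quaking, was higher by 0.13 ± 0.04 (adjusted p = 0.011, edgeR), or 0.073 without mutant replicate 1.

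Noncanonical Wnt signalling is best known from the mesoderm and the dorsal side of the gastrula, so the markers of these cells are given beside them. Of all genes tested, 45.4% were called and 22.4% were called lower, and of the 34 marker genes tested 7 were higher and 14 lower. Of 5 mesoderm markers, 4 were lower in *miR-34a-/-* embryos in edgeR's test (*tbxta*, *noto*, *tbx16* and *tbx6*). The summed level of all 5 was 1368 to 1455 CPM in wild-type and 1209 to 1306 CPM in mutant libraries. Most of it came from *tbxta* and *tbx16*, which are also in the pathway list. The marker *tbx6* fell by 0.89 on the log2 scale, while *msgn1*, the fifth marker, was not called (0.13 ± 0.06, adjusted p = 0.086). Of 4 organizer and prechordal plate markers 3 were lower (*gsc*, *chrd* and *frzb*). The summed level of all 4 was 580.1 to 619 CPM in wild-type and 519 to 561 CPM in mutant libraries. Most of it came from *chrd*, at 480 to 511 CPM in wild-type and 442 to 473 CPM in mutant libraries. Of 4 endoderm markers 3 were lower (*sox17*, *foxa2* and *gata5*), with a sum of 367 to 393 CPM against 316 to 363 CPM. The 5 ventral markers gave 2 higher and 2 lower genes, and none of the 3 markers of the yolk syncytial layer was called. Of these, *mxtx2* was read from only 3 to 24 counts in a library (0.81 ± 0.37, adjusted p = 0.074, edgeR), while *slc26a1* and *gata6* were at -0.13 and -0.10 on the log2 scale. Of 4 enveloping layer markers 1 was higher (*cldne*, by 0.52 on the log2 scale) and 1 lower (*krt8*), and of 4 neural plate markers 1 was higher (*sox19a*). Of 5 germ plasm markers 3 were higher (*buc* by 1.19, *dazl* by 0.76 and *dnd1* by 0.51 on the log2 scale) and 1 was lower (*ddx4*), with a summed level of 104 to 130.1 CPM in wild-type and 94.2 to 105 CPM in mutant libraries. *buc* had 4.29, 2.37, 9.18 and 3.34 CPM in mutant replicates 1 to 4, and its change ranged from 0.74 to 1.41 without single libraries. *dazl* rested on 15 to 72 counts in a library, with an adjusted p of up to 0.049 in edgeR's test without single libraries. Some of these calls were lost when a single library was left out, those of *chrd*, *gata5*, *ved*, *gata2a* and *sox19a*. Their adjusted p then rose to at most 0.11, 0.055, 0.061, 0.16 and 0.18 in edgeR's quasi-likelihood F test. The genotypes overlapped for *noto*, *gsc*, *gata5*, *gata2a* and *sox19a*. The part of the cell types marked here in the results on the members was not tested.

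**Figure D5:**
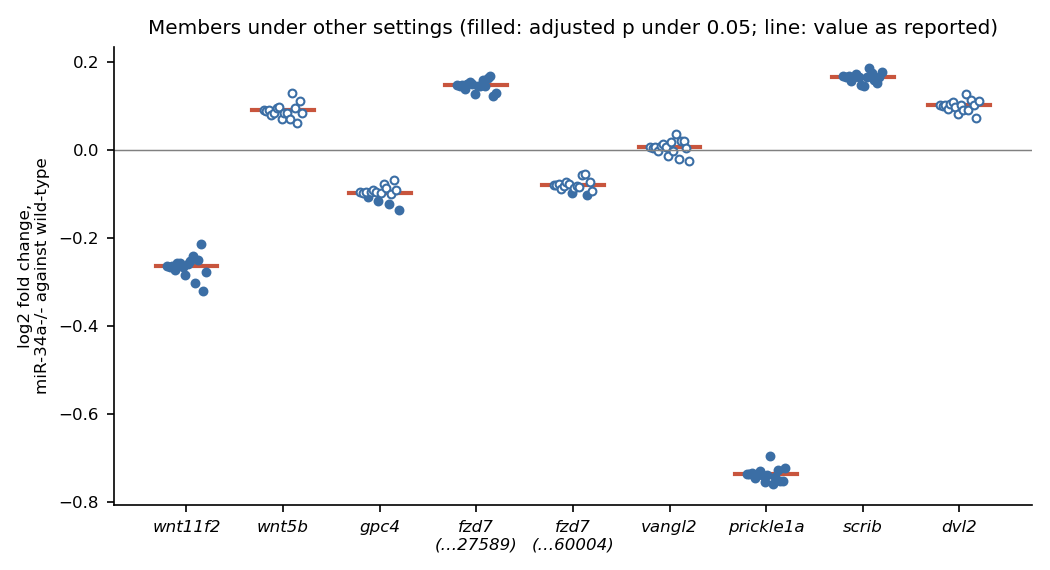
Log2 fold change of each member (y axis) under each alternative normalization, test and filter, the replicate block and each library left out, 1 circle per setting, filled where the adjusted p was under 0.05, with a red line at the value as reported. The circles of *wnt11f2*, *fzd7* ENSDARG00000027589, *prickle1a* and *scrib* are all filled and on one side of 0, those of *gpc4* and *fzd7* ENSDARG00000060004 are partly filled, and those of *vangl2* lie on both sides of 0.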

How the data were processed

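The members and gene lists were chosen with earlier results of these data known. Polyadenylated RNA of 8 libraries was analysed. Reads had been trimmed by the authors with Trim Galore 0.4.4 at a quality of 20, mapped with STAR 2.7.8 to danRer11 and deposited as whole-number counts per Ensembl gene, without normalization. The counting program, annotation release and use of strand are not given in the sources used here. Symbols were paired for 29201 genes, and *prickle1a* was paired through names in a supplement of the study. *prickle1b*, *celsr1a*, *daam1b* and *pcdh18b* were each given the only gene left under a symbol without its letter, so these letters were inferred. From the counts, fold changes were fitted by edgeR 4.0.16 in R 4.3.3 (TMM, filterByExpr, quasi-likelihood test, genotype as the only term, Benjamini-Hochberg adjustment). The fit was also run on simulated data, but no result of that run is reported here. That run is therefore no evidence on changes as small as those of the called members other than *prickle1a*. Nor is it evidence on TMM normalization where as many genes differ as in these data. The standard error was the log2 fold change divided by the square root of F. A count was worth 0.0642 to 0.140 CPM, and intervals for a count of 0 cover counting error only. The genes named were the members, their relatives, and up to 3 called genes per role and direction, some of which are not reported here. Pattern likeness was the root mean square difference of centred log2 CPM (prior count 2). Alternatives were DESeq2 1.42.0, limma-voom (limma 3.58.1), other normalizations and filters, a replicate block, and leaving out each library. Of the listed symbols, 9 were not analysed here.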

Additional observations from a re-analysis of the deposited data

Results flagged for a closer look

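Within each genotype, a library was singled out when its distance to the nearest of the other 3 took up more of the whole range of the genotype than Dixon's critical value allows. Chance alone singles out about 1 in 20 groups, and 3 of 84 groups were singled out here. The *fzd7* copy ENSDARG00000060004 was at 549 CPM in mutant replicate 4, with the other mutant libraries between 581 and 586 CPM. The *dvl1* gene ENSDARG00000055552 was at 1.499 CPM in wild-type replicate 3, with the others between 0.757 and 0.839 CPM. *wnt11f2* took 99.5% of the counts of *wnt11* and *wnt11f2* in mutant replicate 4, which held 10 counts of *wnt11*, and 99.9% in the other mutant libraries.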

How the results depend on the processing

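The 4 called members kept their direction and their call under every alternative run, and over the members, their relatives and the named genes 543 of 592 log2 fold changes did so. A call was lost in 37 of them, all in genes that are no members, and gained in 6, for *gpc4* and *fzd7* ENSDARG00000060004. Upper quartile normalization moved the members called lower from 2 to 4, adding these genes (-0.12 and -0.10). *gpc4* was also called with the library total in place of TMM (-0.11, adjusted p = 0.045, edgeR). *vangl2* turned to -0.0031 with the library total and -0.014 with upper quartile normalization, and ranged from -0.026 to 0.035 without single libraries, below 0 without wild-type replicate 4 (-0.026) and mutant replicates 2 (-0.0022) and 4 (-0.021). *dvl3* ENSDARG00000015707 ranged from -0.0022, without mutant replicate 4, to 0.035. Without single libraries, 2 members were called higher each time and 2 to 3 lower. Other scalings moved the median of all genes by at most 0.020. Same-numbered libraries did not deviate together (correlations from -0.032 to 0.0077), which cannot show whether they were collected or prepared together. With the replicate block 2 members were called higher and 2 lower. The share of *prickle1a* differed by -9.35 points within pairs of the same number (exact p = 0.125, the smallest 4 pairs allow). Between 290 and 8555 counts stood behind a member in a library, fewest for *wnt5b* (290 to 634), while 20 genes of the list were too shallow to test. Whether depth limited the members that were not called was not tested.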

Other observations

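For *prickle1a*, the called member with the largest change, the genes whose centred log2 CPM differed least from its own over the 8 libraries were si:ch73-303b9.1, *chek1* and *hnrnpul1*, with root mean square differences of 0.048, 0.049 and 0.061, against a median of 0.41 over 13841 genes. si:ch73-303b9.1 was between 52.2 and 54.1 CPM in wild-type and between 29.5 and 32.4 CPM in mutant libraries. *chek1*, which encodes a checkpoint kinase of the DNA damage response, was between 24.2 and 27.0 CPM and between 14.2 and 15.997 CPM. *hnrnpul1*, which encodes an RNA-binding protein, was between 602 and 628 CPM and between 379 and 390.0 CPM. In all 3, as in *prickle1a*, the genotypes did not overlap. These genes were selected for this likeness, so their levels are a description.

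Of the 14 pathway genes on the readable part of the predicted miR-34 target list, 3 were higher in *miR-34a-/-* embryos, among them *scrib* and *celsr2*, and 3 were lower, *dchs1b*, *mink1* and *has2*, a hyaluronan synthase gene. Among all genes tested 45.4% were called, 23.0% higher and 22.4% lower, so these counts say nothing particular about the listed genes. The other 8 (*gpc4*, *daam1a*, *daam2*, *rock1*, *gna13a*, *gna13b*, *yes1* and *fynb*) were not called, and *daam2* was too low to test. *has2* was lower by -0.20 ± 0.07 (adjusted p = 0.022, edgeR's quasi-likelihood F test), with overlapping genotypes. Its call was lost when a single library was left out, at an adjusted p of up to 0.12 in the same test.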
